A study of Mus musculus with 28 samples.

Results

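The 10 immediate early response genes Fos, Fosb, Junb, Jund, Egr1, Ier2, Dusp1, Zfp36, Nr4a1 and Btg2 were followed in purified mouse sensory neurons. They were chosen by name as members of this class, and make up 10 of the 45952 genes listed in the expression tables. The study asked whether sensory neurons differ between the sexes, by RNA-seq of 28 libraries with 2 mice pooled in each. Naïve neurons came from uninjured AdvGFP mice of both sexes, 3 to 6 months old, with 11 libraries per sex. In these mice an advillin transgene marks peripheral sensory neurons with GFP, and live GFP-positive cells were sorted by FACS. Injured neurons came from C57BL/6J mice without the transgene, aged between 6 weeks and 7 months, on day 8 after partial sciatic nerve ligation (SNL), with 3 libraries per sex. They were purified from ipsilateral lumbar dorsal root ganglia (DRG) by MACS, a magnetic depletion of other cells that leaves mostly small neurons. By the paper, the SNL females were ligated in estrus and harvested 8 days later in estrus again. It reports no such staging for the naïve females. Each naïve library held the neurons of lumbar DRG or of trigeminal ganglia. By the paper, trigeminal ganglia made up 2 of the 11 replicates, and the labels do not say which. All cells had been enzymatically dissociated before RNA extraction. By the paper, many of the sorted naïve neurons keep satellite glial cells attached, whereas the MACS neurons are free of them.

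Immediate early genes are transcribed within minutes of a stimulus, without new protein synthesis, when kinases activate transcription factors that are already bound at their promoters. In sensory neurons they are known for their induction by depolarisation, growth factors and injury, and the handling and enzymatic digestion of tissue are known to induce them as well. Fos, Fosb, Junb and Jund are subunits of the AP-1 transcription factor, Egr1 is a zinc finger transcription factor and Nr4a1 an orphan nuclear receptor. Zfp36 encodes an RNA-binding protein that destabilises transcripts with AU-rich elements, Dusp1 a phosphatase that inactivates MAP kinases, and Btg2 an antiproliferative protein that promotes removal of poly(A) tails. Ier2 encodes a short nuclear protein.

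RefSeq promoter windows (GRCm38.p6) were at hand for 8 of the 10 genes, all but Egr1 and Ier2. The 250 bases before each RefSeq start were searched on both strands for the cAMP response element (CRE) TGACGTCA, its core TGACG, the AP-1 site TGANTCA, the CArG box bound by serum response factor, the GC box GGGCGG and the TATA box TATAAA. A CRE lay before 2 of the 8 genes, Dusp1 and Btg2, and in 1.55% of all 32851 windows. The core alone, which a full CRE also contains on each strand, lay before 6 of the 8 genes, all but Jund and Zfp36, and in 17.8% of windows. Nr4a1 had 4 cores. A CArG box lay before Zfp36, 58 bases upstream of its start, and in 1.47% of windows. The TATA box was matched before Fos only, 33 bases upstream, and in 12.4% of windows. No AP-1 site was matched before any of the 8 genes, against 6.75% of windows, and a GC box was matched before 6 of them, against 32.7%. These are matches of letters and not measured binding. The 5 sequences below are those whose matches tell the genes apart. They run 5′ to 3′ on the gene's strand, and they stop before the first base of the gene in the tables or of the RefSeq transcript, whichever comes first.
Fos (chr12:85473640-85473889, plus strand, CRE cores and TATA box in capitals): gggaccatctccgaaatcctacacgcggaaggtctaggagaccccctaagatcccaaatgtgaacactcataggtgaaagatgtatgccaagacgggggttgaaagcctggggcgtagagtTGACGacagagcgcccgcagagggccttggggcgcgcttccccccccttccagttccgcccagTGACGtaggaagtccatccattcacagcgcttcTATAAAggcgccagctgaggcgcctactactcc
Nr4a1 (chr15:101266596-101266845, plus strand, CRE cores in capitals, all on the other strand and so read CGTCA here): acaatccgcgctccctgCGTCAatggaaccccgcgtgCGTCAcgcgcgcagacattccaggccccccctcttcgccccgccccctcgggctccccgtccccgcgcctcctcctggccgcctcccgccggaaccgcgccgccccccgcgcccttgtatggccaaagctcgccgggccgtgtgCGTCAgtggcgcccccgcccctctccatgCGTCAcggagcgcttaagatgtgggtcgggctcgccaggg
Zfp36 (chr7:28379256-28379478, minus strand, CArG box in capitals): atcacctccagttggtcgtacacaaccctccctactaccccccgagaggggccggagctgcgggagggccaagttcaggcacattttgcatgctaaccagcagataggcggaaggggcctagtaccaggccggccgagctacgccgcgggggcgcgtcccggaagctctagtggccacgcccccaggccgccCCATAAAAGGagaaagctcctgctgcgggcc
Dusp1 (chr17:26508520-26508722, minus strand, CRE and a further core in capitals): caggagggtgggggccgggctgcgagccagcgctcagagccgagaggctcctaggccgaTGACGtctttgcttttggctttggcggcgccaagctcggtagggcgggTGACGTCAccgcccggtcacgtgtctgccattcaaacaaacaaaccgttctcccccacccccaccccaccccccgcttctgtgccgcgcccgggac
Btg2 (chr1:134079156-134079405, minus strand, CRE in capitals): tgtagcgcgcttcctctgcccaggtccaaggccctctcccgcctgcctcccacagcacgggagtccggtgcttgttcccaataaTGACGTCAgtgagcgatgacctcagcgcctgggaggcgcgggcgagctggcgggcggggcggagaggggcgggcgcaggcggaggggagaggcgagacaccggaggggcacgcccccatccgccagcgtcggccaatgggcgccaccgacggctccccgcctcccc

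In the mm10 coordinates of the tables, counted from 1, Fos (ENSMUSG00000021250) lies at chr12:85473890-85477273, Fosb (ENSMUSG00000003545) at chr7:19302721-19310045, Junb (ENSMUSG00000052837) at chr8:84976909-84978748 and Jund (ENSMUSG00000071076) at chr8:70697739-70700616. Egr1 (ENSMUSG00000038418) lies at chr18:34859823-34864984, Ier2 (ENSMUSG00000053560) at chr8:84661331-84662852 and Dusp1 (ENSMUSG00000024190) at chr17:26505590-26508519. Zfp36 (ENSMUSG00000044786) lies at chr7:28376784-28379255, Nr4a1 (ENSMUSG00000023034) at chr15:101266846-101274792 and Btg2 (ENSMUSG00000020423) at chr1:134075170-134079120. All 10 are protein-coding. The reads carry no strand, and the only other listed gene on these loci, Gm11175 within Jund, was listed at 0 in all naïve libraries.

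Some libraries stood apart before any comparison. The trunk Hox genes, which mark neurons of the body axis, summed to 0.402 to 0.795 FPKM in 4 naïve libraries (males 2 and 10, females 2 and 11). In the other 18 they summed to at least 108.9 FPKM. These genes are near 0 in trigeminal ganglia. The 4 libraries, 2 of each sex, match the paper's n of 2 for that ganglion, but the labels do not name it. FPKM is the number of fragments per length of transcript, scaled to the depth of the library. Markers of injured neurons (Atf3, Sprr1a, Gal and others) summed to 7955 FPKM in naïve male 4 and 4807 FPKM in naïve female 5, against a naïve median of 588.8 FPKM and 1185 to 3366 FPKM after SNL. This sum leans on Gal, which alone reached 6493 FPKM in its highest naïve library. Npy and Sox11 peaked at 15.2 and 5.41 FPKM in naïve libraries, under their lowest values after SNL, 22.6 and 8.25 FPKM. For the other markers of the list, Atf3, Sprr1a, Gal, Gap43 and Nts, the naïve and SNL ranges overlapped. Naïve female 4 had the highest fibroblast marker sum, 323.2 FPKM against a naïve median of 15.4, and also the highest Schwann cell (3922 against 1332), endothelial (51.1 against 0.33) and erythroid sums (71.6 against 5.65). Neuronal markers summed to 4126 to 5800 FPKM in naïve libraries and 4413 to 5905 FPKM after SNL, whereas satellite glial markers summed to 1415 to 6999 FPKM in naïve libraries and 44.2 to 90.4 FPKM after SNL. Input reads numbered 24800048 to 40035653 in naïve libraries and 30544219 to 50649730 after SNL.

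The 10 genes were expressed at very different levels in the naïve libraries. Fos was the most abundant, with a mean of 48.8 ± 31.1 FPKM (SD, n = 22), followed by Zfp36 with 26.5 ± 21.2 and Btg2 with 18.2 ± 11.6. Nr4a1 (10.9 ± 7.66), Junb (9.26 ± 6.66), Dusp1 (8.57 ± 6.26), Ier2 (8.53 ± 5.46) and Egr1 (6.64 ± 5.09 FPKM) followed within one SD of each other. Jund reached 3.00 ± 0.926 FPKM and Fosb 0.678 ± 0.753 FPKM, and Fosb reached 1 FPKM in only 4 of the 22 libraries. Within each library Fos ranked at a median percentile of 83.6 among the 12893 tested genes, Egr1 at 43.4 and Fosb at 8.91. In bulk samples of this kind, fewer cells of a type and less RNA per cell cannot be told apart.

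**Figure D1:**
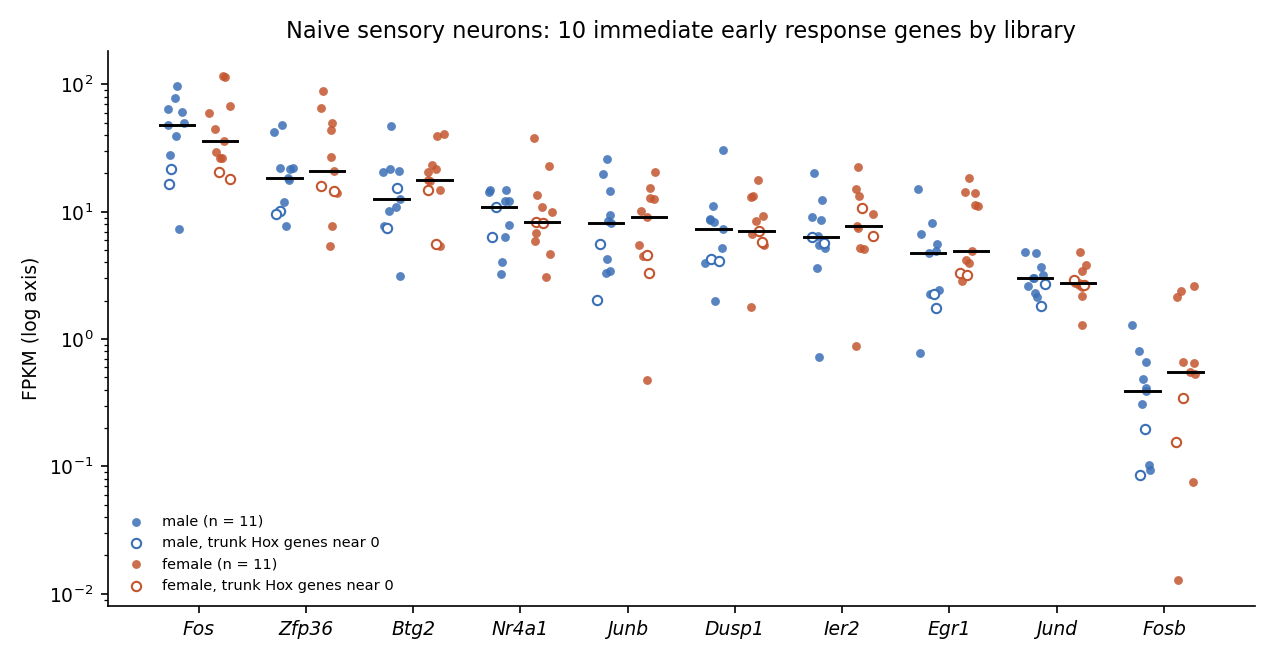
FPKM (log axis) of the 10 genes in the naïve libraries, with 1 point per library, males in blue and females in orange (n = 11 each), open points for the 4 libraries with trunk Hox genes near 0 and black lines for medians. Male and female points overlap for every gene, and the open points of Fos lie between 16.5 and 21.8 FPKM, under both medians.

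Most members varied widely between naïve libraries. Fos ran from 7.30 FPKM in male 4 to 117 FPKM in female 7, with 114 FPKM in female 4 and 96.7 FPKM in male 7. Zfp36 ran from 5.36 FPKM in female 3 to 88.5 FPKM in female 4, and Egr1 from 0.779 FPKM in male 4 to 18.6 FPKM in female 4. Junb ran from 0.479 FPKM in female 10 to 25.8 FPKM in male 8, where Dusp1 also peaked at 30.8 FPKM. The SD of log2(FPKM + 1) over the 22 libraries was 1.02 for Junb, 1.02 for Zfp36 and 0.97 for Fos, and the median over tested genes was 0.50. By this SD, 6 members (Junb, Zfp36, Fos, Egr1, Ier2 and Btg2) stood at percentiles of 91.7 to 94.5 among the tested genes, Dusp1 at 87.1 and Nr4a1 at 86.4. Jund was the exception, with a range of 1.30 to 4.82 FPKM and an SD of 0.33, at percentile 12.8. Fosb, whose low level compresses this scale, stood at 57.4.

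The libraries with the highest levels were not the same for every member. Female 4 was highest for Egr1, Zfp36, Nr4a1 (37.8 FPKM) and Fosb (2.60 FPKM), yet its Dusp1 was 5.60 FPKM and its Jund 2.64 FPKM, both under the naïve medians of 7.15 and 2.76. The high fibroblast, Schwann cell, endothelial and erythroid sums of this library move with its values, and their part was not tested. Female 10 held 59.5 FPKM of Fos and 14.0 FPKM of Egr1, above their medians of 42.1 and 4.82, while its Junb (0.479 FPKM) was the lowest and its Ier2 (0.881 FPKM) next to the lowest of all naïve libraries. Male 4 showed the opposite, with the lowest Fos and Egr1 of all and 19.7 FPKM of Junb, the third highest. Ier2 was lowest in male 3, at 0.728 FPKM, where Fos stood at 50.0 FPKM.

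**Figure D2:**
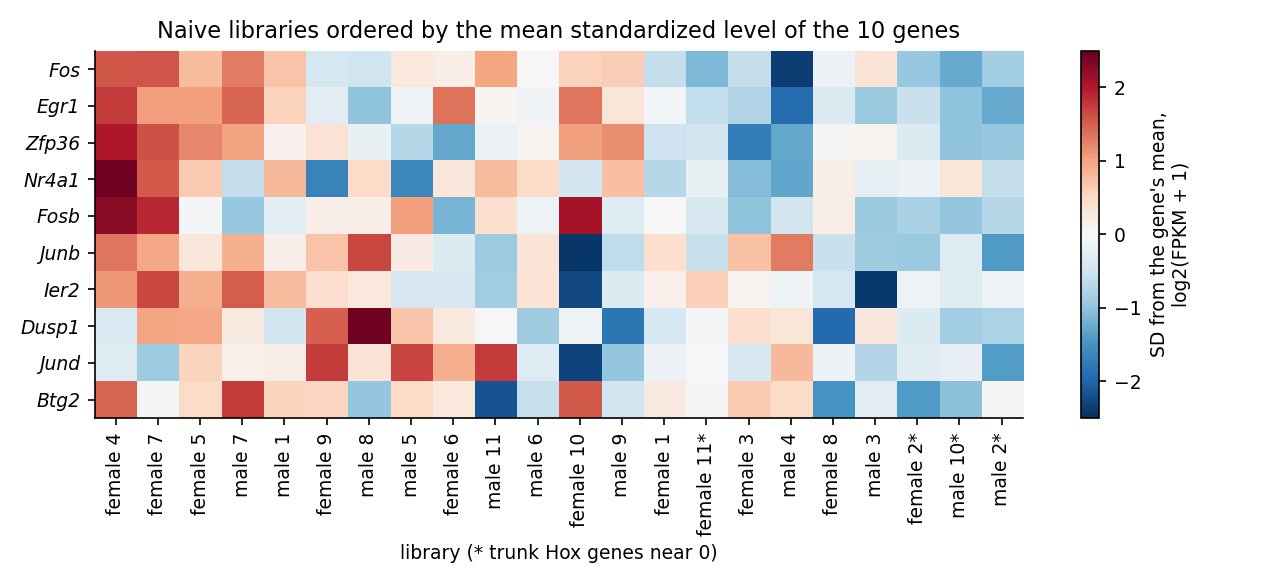
Level of each gene in each naïve library, in SD from the gene's own mean on the log2(FPKM + 1) scale (red above, blue below), with libraries ordered by their mean over the 10 genes and asterisks on the libraries with trunk Hox genes near 0. Female 4 and female 7 lead the order, and female 10 combines high Fos, Egr1, Zfp36 and Fosb with low Junb, Ier2 and Jund.

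Across the 22 naïve libraries the members fell into pairs that moved together and pairs that did not. Over all 45 pairs the median Spearman's rho was 0.24, with 39 pairs above 0, against a median of 0.01 over all pairs of tested genes, of which 51.5% were above 0. In the 18 libraries with trunk Hox genes expressed 29 pairs were above 0 (median 0.15). Without females 4 and 7 this held for 31 pairs (median 0.16), and without male 4 and female 5 for 37 (median 0.21). Males alone gave 29 (median 0.15) and females alone 34 (median 0.25). The values over all pairs of tested genes were taken over the 22 libraries only, so these smaller sets have no background. In 4 pairs over the 22 libraries both Pearson's r and rho passed an adjusted p of 0.05 (permutation tests with 100000 resamples, two-sided, Benjamini-Hochberg over 45 pairs). For Fos and Egr1 rho was 0.81 (p = 2e-05, adjusted p = 0.00045) and r 0.84 (p = 1e-05, the smallest these resamples can give, adjusted p = 0.00045). For Fos and Zfp36 rho was 0.78 (p = 2e-05, adjusted p = 0.00045) and r 0.76 (p = 2e-05, adjusted p = 0.00045). For Egr1 and Zfp36 rho was 0.65 (p = 0.00138, adjusted p = 0.0155) and r 0.69 (p = 0.00037, adjusted p = 0.00416). The fourth pair lay outside this trio: for Junb and Ier2 rho was 0.69 (p = 0.00045, adjusted p = 0.00675) and r 0.70 (p = 0.00034, adjusted p = 0.00416).

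Without the 2 libraries farthest from the median of the first gene, r was 0.80 for Fos and Egr1, 0.71 for Fos and Zfp36, 0.58 for Egr1 and Zfp36 and 0.61 for Junb and Ier2. In the 18 libraries with trunk Hox genes expressed, rho was 0.76 for Fos and Egr1 (permutation adjusted p = 0.0099), 0.77 for Fos and Zfp36 (adjusted p = 0.0099) and 0.73 for Junb and Ier2 (adjusted p = 0.0117). Fos and Nr4a1 passed there as well, with a rho of 0.69 (permutation adjusted p = 0.0225) and r of 0.64 (adjusted p = 0.0426). For Egr1 and Zfp36 rho was 0.61 there, which did not pass (adjusted p = 0.0736, against 0.0426 for r), nor did it pass without male 4 (adjusted p = 0.0501) or without female 4 (adjusted p = 0.0607). Within males alone rho was 0.91 for Fos and Egr1 (permutation adjusted p = 0.0112, n = 11), 0.84 for Fos and Zfp36 (adjusted p = 0.0338), 0.85 for Egr1 and Zfp36 (adjusted p = 0.0333) and 0.62 for Junb and Ier2 (adjusted p = 0.430). By Pearson's r Fos with Zfp36 and Egr1 with Zfp36 did not pass in males (permutation adjusted p = 0.0525 for each, n = 11), so that Fos with Egr1 was the 1 pair that passed by both measures. Within females the same 4 values of rho were 0.78, 0.74, 0.55 and 0.75, and none passed (permutation adjusted p of 0.141, 0.141, 0.408 and 0.141, n = 11). By Pearson's r 3 of these passed in females, Fos with Egr1 (r = 0.87, permutation adjusted p = 0.0227), Fos with Zfp36 (r = 0.79, adjusted p = 0.0406) and Junb with Ier2 (r = 0.86, adjusted p = 0.0266).

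The remaining pairs did not pass both measures over the 22 libraries. Nr4a1 reached a rho of 0.54 with Fos (permutation adjusted p = 0.0782, n = 22) and 0.52 with Zfp36 (adjusted p = 0.090), and Fosb a rho of 0.56 with Zfp36 (adjusted p = 0.0687). By Pearson's r these 3 pairs passed, with r of 0.58 (permutation adjusted p = 0.0363), 0.59 (adjusted p = 0.0301) and 0.64 (adjusted p = 0.0122), but r fell to 0.45, 0.40 and 0.47 without the 2 farthest libraries. Dusp1 reached 0.47 with Junb and 0.43 with Jund, and neither passed (permutation adjusted p of 0.154 and 0.185). The AP-1 partners Fos and Junb gave a rho of 0.10, and Fos and Jund -0.03. The lowest of the 45 values was -0.33, for Nr4a1 and Btg2. For Fos and Nr4a1, which passed in the 18 libraries above, rho was 0.39 without females 4 and 7 (permutation adjusted p = 0.336, n = 20). Whether pairs with high and low values differ was not tested.

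**Figure D3:**
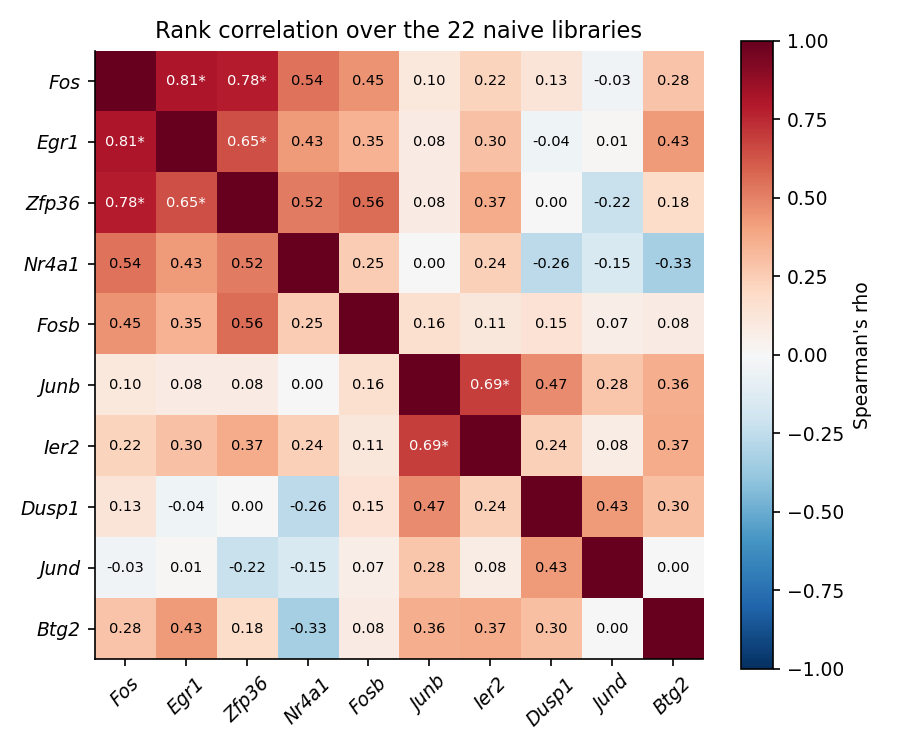
Spearman's rho for every pair of the 10 genes over the 22 naïve libraries, in red above 0 and blue below 0, with asterisks where rho and Pearson's r both pass an adjusted p of 0.05. The asterisks mark Fos, Egr1 and Zfp36 with each other, at 0.65 to 0.81, and Junb with Ier2, at 0.69.

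The 6 SNL libraries gave a small second set. Fos and Zfp36 again ran together, with a rho of 0.94 (exact permutation p = 0.0167, adjusted p = 0.300 over 36 pairs) and r of 0.94 (exact permutation p = 0.00417, adjusted p = 0.150), and r was 0.74 without the 2 farthest libraries. Over these libraries rho was 0.37 for Fos and Egr1 and 0.31 for both Egr1 with Zfp36 and Junb with Ier2. None of the 36 SNL pairs passed adjustment.

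Among the other 12883 tested genes, 5 followed the mean standardised level of the 10 members most closely over the 22 naïve libraries. They were Cyr61, which encodes a secreted matrix protein (rho 0.80), Tgfa, a ligand of the EGF receptor (rho 0.71), Zbtb46, a zinc finger transcription factor (rho 0.70), Socs3, an inhibitor of cytokine signalling (rho 0.68), and C1qbp, a mainly mitochondrial protein (rho 0.67). Cyr61 ran from 2.04 to 24.6 FPKM and peaked in female 7, as Fos and Ier2 did. Cyr61 and Socs3 belong to a list of 53 other immediate early and rapid response genes, of which 36 were tested. In that list 30 of 36 genes had a rho above 0 with the member mean, with a median of 0.26, against 52.3% and a median of 0.01 over the other tested genes. Ier3 (rho -0.20), Dusp5 (rho -0.20) and Irf1 (rho -0.17) were lowest in the list.

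The member levels were also set beside 6 measures of each naïve library (satellite glial, Schwann cell, fibroblast, neuronal and injured neuron marker sums, and input reads), which gave 60 relations. By rho none passed adjustment, the lowest permutation adjusted p being 0.110 for Ier2 with input reads (rho 0.61, r 0.49) and for Btg2 with the neuronal markers (rho -0.60). By Pearson's r the last relation passed (r = -0.68, permutation p = 0.00064, adjusted p = 0.0384, n = 22), and r was -0.60 without the 2 libraries farthest from the median of the marker sum. Nr4a1 gave a rho of 0.51 with the satellite glial sum (permutation p = 0.0160, adjusted p = 0.160). Junb gave a rho of 0.54 with the injured neuron sum (permutation p = 0.0103, adjusted p = 0.160). At the same adjusted p, Egr1 gave a rho of -0.52 with the neuronal sum and Dusp1 a rho of -0.52 with the Schwann cell sum.

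In the 4 libraries with trunk Hox genes near 0 the members were low and close together. Fos stood at 16.5 to 21.8 FPKM there, against a median of 49.0 FPKM in the other 18 libraries, which ran from 7.30 to 117 FPKM. Egr1 stood at 1.74 to 3.31 FPKM against a median of 5.26, and Zfp36 at 9.62 to 15.9 FPKM against 21.7. For 7 of the 10 genes all 4 libraries were under the median of the other 18, as for 12.9% of all tested genes, and for Jund, Ier2 and Nr4a1 3 of the 4 were. No test was made, since these libraries were picked out from the data, and the ranges overlap for every gene. The part of the ganglion in these levels was not tested.

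The question of the study was then put to the members. In naïve neurons male and female libraries overlapped for every member. None of the 10 was called by limma (adjusted p of 0.605 to 0.971 by Benjamini-Hochberg over 12893 genes), where 7 genes of all tested, or 0.0543%, were. None had an unadjusted p under 0.05, against 8.29% of all tested genes. The median difference over the members was -0.21 on the log2(FPKM + 1) scale, male minus female, with 8 of 10 below 0, against a median of -0.07 over all tested genes, of which 61.0% were below 0. Fosb reached 1 FPKM in 3 females and 1 male and so passed the filter only through females, the sex in which it was higher, which favours its sign. Of the other 9 members 7 were below 0, with a median of -0.14.

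Egr1 came closest. It ran from 0.779 to 15.1 FPKM in males (median 4.74) and from 2.84 to 18.6 FPKM in females (median 4.96). The groups overlap from 2.84 to 15.1 FPKM and the medians are close. Males 2, 3, 4, 8 and 10, at 0.779 to 2.41 FPKM, lay under every female, and female 4 lay above every male. The female mean was higher, at 8.34 ± 5.63 against 4.95 ± 4.06 FPKM (SD, n = 11). The difference was -0.67 ± 0.36 (SE) on the log2 scale, with a 95% interval of -1.41 to 0.07 (limma, p = 0.0732, adjusted p = 0.605). Fos ran from 7.30 to 96.7 FPKM in males (median 48.0) and from 18.2 to 117 FPKM in females (median 36.1). Its difference was -0.14, with an interval of -0.94 to 0.65 (limma, adjusted p = 0.922), and it turned to 0.08 without male 4. For Junb the interval was -0.78 to 0.91, and the estimate of 0.07 became -0.40 with RIN as a covariate, a fit that also drops male 8, which has no RIN and the highest Junb. Without male 8 alone it was -0.10. Jund was bounded most closely, at 0.08 with an interval of -0.26 to 0.41. For all 10 members the interval included 0, so differences of either sign within it are not excluded.

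After SNL the estimates of all 9 tested members were below 0, except that Egr1 came to 0.022 with median-of-ratios scaling and that Egr1 came to 0.099 and Btg2 to 0.0062 with quantile normalisation, and that Egr1, Btg2, Jund and Ier2 turned above 0 when single libraries were left out. Egr1 then reached 0.33 (without female 3), Btg2 0.24 (without male 2), and Jund and Ier2 turned only without male 1. Again none was called (limma, adjusted p of 0.945 to 0.995 over 11303 genes), where 5 genes of all tested, or 0.0442%, were. None had an unadjusted p under 0.05, against 3.69% of all tested genes. The median difference was -0.61, against -0.08 over all tested genes, of which 59.4% were below 0. Fosb was left out, at 0.0170 to 0.292 FPKM in all 6 libraries. Fos stood at 5.93, 4.23 and 16.1 FPKM in males 1 to 3 and at 12.1, 15.9 and 14.7 FPKM in females 1 to 3. Male 3 was the highest of all 6, while males 1 and 2 were below every female. The difference was -0.83 ± 0.42 (SE), with a 95% interval of -1.79 to 0.13 (limma, p = 0.0829, adjusted p = 0.945).

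Dusp1 stood at 4.07, 16.2 and 10.6 FPKM in males and at 19.2, 10.6 and 40.5 FPKM in females. Females 1 and 3 were above all males, and female 2 was level with male 3. The difference was -1.09 ± 0.55 (SE), with a 95% interval of -2.34 to 0.16 (limma, p = 0.0800, adjusted p = 0.945). Nr4a1 stood at 0.796, 1.37 and 1.58 FPKM in males and at 0.664, 2.06 and 8.96 FPKM in females, so that its difference of -0.74 (95% interval -2.09 to 0.62) leaned on female 3. Egr1, the closest member in naïve neurons, differed by -0.03 after SNL (95% interval -1.12 to 1.05). Whether the sex difference itself changed between the experiments was not tested.

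**Figure D4:**
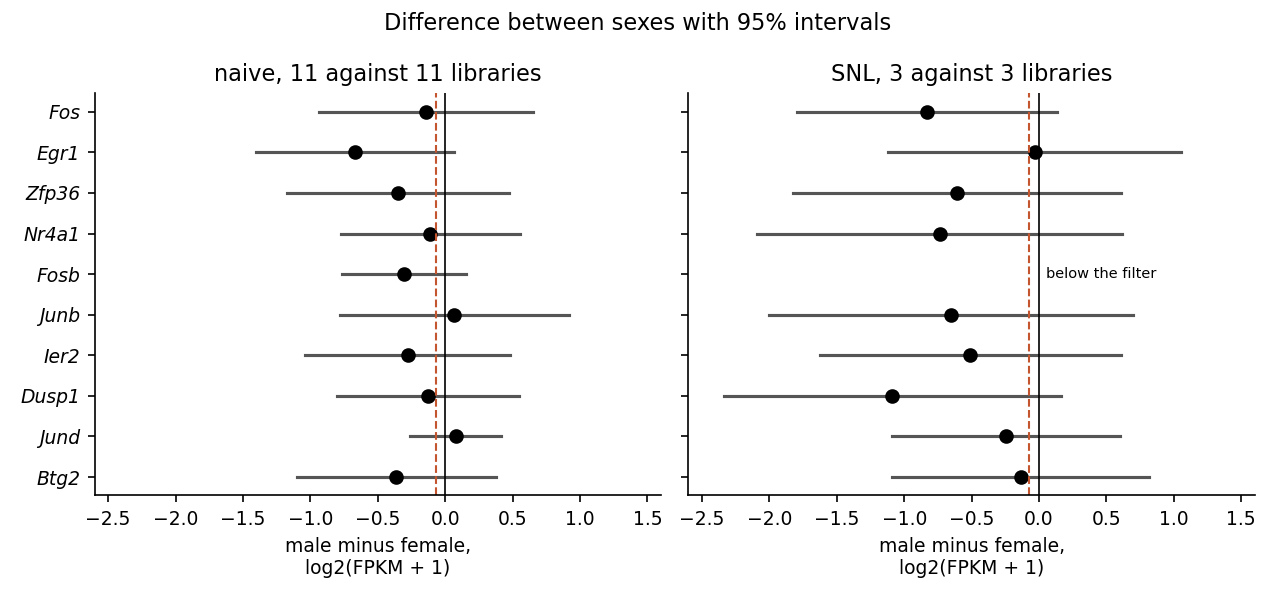
Male minus female difference of each gene on the log2(FPKM + 1) scale, in naïve neurons (left, n = 11 per sex) and after SNL (right, n = 3 per sex), with 95% intervals from limma as bars and the median over all tested genes as a dashed orange line. Every interval includes 0, from Egr1 at -0.67 in naïve neurons to Dusp1 at -1.09 after SNL, and Fosb was under the expression filter after SNL.

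In SNL male 1 the members were low together, with 26.4 FPKM summed over the 10 genes, against 37.2 and 76.3 FPKM in males 2 and 3 and at least 58.8 FPKM in each female. Only 6 of the 10 genes reached 1 FPKM in that library. Without it the estimates of Ier2 and Jund moved from -0.51 and -0.24 to 0.01 and 0.05. SNL male 3, with the highest Fos, Jund, Egr1, Zfp36 and Btg2 and the highest of the low Fosb values, had the lowest RIN (5.80) and the highest haemoglobin and erythroid marker sum (18891 FPKM) of the 6, and the part of these in its values was not tested.

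RNA integrity (RIN) gave a further measure of each library. Over the 21 naïve libraries that have one, no member was called for a slope on RIN once sex was in the model (limma, adjusted p of 0.550 to 0.989), where 9 genes of all tested, or 0.0698%, were. None had an unadjusted p under 0.05, against 13.1% of all tested genes. The steepest slope was that of Junb, -0.27 per RIN unit on the log2 scale (95% interval -0.65 to 0.11), followed by Btg2 (-0.21), Zfp36 (-0.20) and Dusp1 (-0.18). For Fos the slope was -0.07 (95% interval -0.46 to 0.33).

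The naïve and SNL tables can be set side by side only as a description. Strain, transgene, age range, estrus staging, ganglia, purification, injury and normalisation differ at once and cannot be told apart. Most members were lower in the SNL libraries. The median of Fos was 13.4 FPKM after SNL and 42.1 FPKM in naïve neurons, and that of Nr4a1 1.47 and 9.19 FPKM, with 5 of the 6 SNL libraries below the lowest naïve one. All 6 SNL libraries lay under the naïve median for Fos, Fosb, Junb, Ier2, Zfp36, Nr4a1 and Btg2, as for 15.9% of the 12858 tested genes matched in both tables, and 4 of 6 did for Egr1. Jund was level, at medians of 2.70 and 2.76 FPKM. Dusp1 went the other way, with a median of 13.4 FPKM after SNL and 7.15 FPKM in naïve neurons, and 5 of 6 SNL libraries above the naïve median.

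Ranks within each library placed 9 of the 10 genes lower after SNL. They do not depend on the scaling of the tables, but they do depend on the tested genes of each table, 12893 and 11303. The median FPKM of the tested genes was at most 7.504 in naïve libraries (female 4) and at least 7.88 after SNL (male 1). A gene at the same FPKM can therefore rank lower after SNL, and the part of this in the ranks was not tested. How many of all tested genes rank lower was not counted. Fos stood at a median percentile of 83.6 in naïve libraries and 58.1 after SNL, with 21 of 22 naïve libraries above the highest SNL library. Nr4a1 stood at medians of 57.5 and 11.6, Zfp36 at 73.0 and 44.9 and Ier2 at 51.0 and 20.9. Jund, level by FPKM, stood at 31.3 and 21.5, with all 6 SNL libraries under the naïve median and 16 of 22 naïve libraries above the highest SNL library. Dusp1 stood at 51.9 and 57.2, and no naïve library exceeded the highest SNL library, female 3, at 79.4. The satellite glial marker sums given above, which were lower after SNL in every library, move with these levels. So do the erythroid sums, at 0.37 to 71.6 FPKM in naïve libraries and 560.7 to 18891 FPKM after SNL, and the macrophage sums, at 6.64 to 47.1 and 0.61 to 2.44 FPKM. The macrophage sums rest largely on Aif1, at medians of 13.2 and 0.55 FPKM. Lyz2 was also lower after SNL (medians of 0.81 and 0.11 FPKM), but C1qb was level (0.33 and 0.32 FPKM). Cd68 had medians of 0 and 0.19 FPKM, and C1qa, C1qc, Csf1r and Cx3cr1 had naïve medians of 0. The part of the marker sums in the member levels was not tested.

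**Figure D5:**
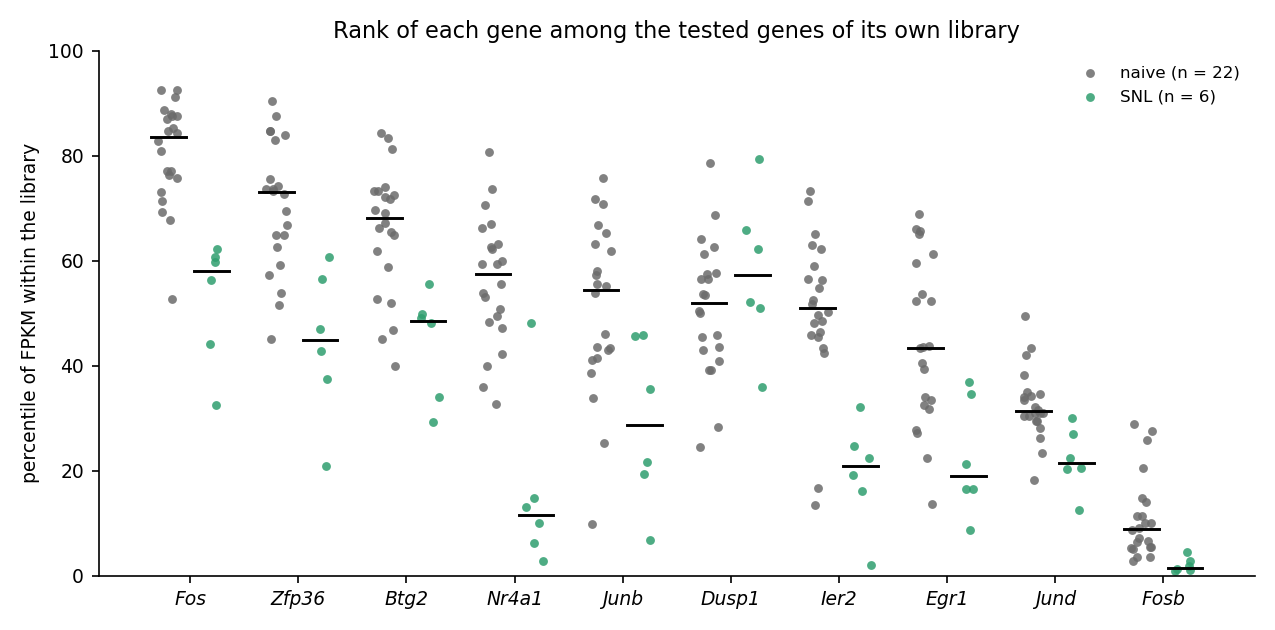
Percentile of each gene's FPKM among the tested genes of the same library, with 1 point per library, naïve in grey (n = 22) and SNL in green (n = 6), and black lines for medians. For Nr4a1 the medians are 57.5 and 11.6, while for Dusp1 they are 51.9 and 57.2.

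Of the 36 other rapid response genes tested in naïve neurons, 18 had a lower and 18 a higher median FPKM after SNL. For 6 of the 36 all SNL libraries lay under the naïve median, as for 15.9% of the tested genes matched in both tables. For 7 of the 36 all SNL libraries lay over it, and the share of all tested genes that did so was not counted. Cyr61, the gene most like the members, was among those lower, with medians of 7.04 and 0.94 FPKM. Of the upstream genes 4 of 18 and of the heat shock genes 5 of 12 had a lower median after SNL. How many of all tested genes had a lower or higher median was not counted, so these counts have no background. Of the 53 other rapid response genes, the 3 with the highest mean FPKM in naïve libraries were Gadd45g and Ier3, stress-response genes, and Atf3, a transcription factor known to rise in axotomised sensory neurons. Atf3 had a median of 7.78 FPKM in naïve libraries (1.71 to 166) and 118 FPKM after SNL (62.3 to 276). Gadd45g had medians of 54.4 and 129 FPKM and Ier3 medians of 49.9 and 77.6 FPKM. Among the kinases and transcription factors upstream of the members, the most abundant were Mapk3, at medians of 501 and 497 FPKM, and Map2k1, at 52.7 and 55.1 FPKM, so that their medians lay close together in the 2 tables. Of the heat shock genes that dissociation is known to raise, the 3 most abundant were Hspa8, Hsp90ab1 and Hsp90aa1. Hspa8 had medians of 2903 and 2616 FPKM, Hsp90ab1 of 1794 and 2287 FPKM and Hsp90aa1 of 291 and 356 FPKM. The least abundant of that list were Hspa1a, at medians of 0.92 and 0.79 FPKM, and Hspa1b, at 1.05 and 0.23 FPKM.

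Between the sexes no gene of these lists was called by limma. Of the other rapid response genes, 0 of 36 passed in naïve neurons (median -0.16, 4 with an unadjusted p under 0.05) and 0 of 33 after SNL (median -0.40, 8 above 0, 2 with an unadjusted p under 0.05). Of the 19 upstream genes, 0 of 18 and 0 of 17 passed, and of the 12 heat shock genes, 0 of 12 and 0 of 10, with no unadjusted p under 0.05 in either list. The heat shock medians were 0.08 and 0.14, on the other side of 0 from the members.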

How the data were processed

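RNA-seq of purified sensory neurons was analysed in 22 naïve and 6 SNL libraries, grouped by the sample titles. The authors made libraries with an unstranded low-input kit, aligned reads to mm10 with STAR, kept unique alignments and deposited FPKM values from Cufflinks. No versions of these tools were stated. RNA integrity (RIN) is a score deposited by the authors, and deposited alignment statistics gave other values, the input reads. Deposited DESeq2 tables hold the authors' own comparisons and were left out. FPKM carries no counts, so no count test was fitted and the counting error is unknown.

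Genes with at least 1 FPKM in 3 naïve or 2 SNL libraries of either sex were tested (12893 and 11303), each table alone, on the log2(FPKM + 1) scale. The test was limma 3.58.1 (R 4.3.3) with its trend option, adjusted by Benjamini-Hochberg at 0.05 and checked on simulated data. Libraries pooled mice, and p-values measure the spread between libraries. The members and lists were chosen with earlier results of these data known. Besides the members, the 5 genes most like their mean and the 3 most abundant of each list (where none passed) are named. An item that this rule names among the upstream genes is not reported here. The lowest genes of the rapid response and heat shock lists, the pairwise relations and the library measures were chosen after the values were seen. Relations used log2(FPKM + 1) in Python 3.11.15 with numpy 2.4.6 and scipy 1.17.1. Alternatives were another pseudocount, filter or scaling, no trend, covariates, a replicate block and leaving out libraries.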

Additional observations from a re-analysis of the deposited data

How the results depend on the processing

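No member was called in any comparison under any alternative, and adjusted p-values of members ran from 0.479 to 1.00 (naïve sex), 0.625 to 1.00 (SNL sex) and 0.204 to 1.00 (RIN). The signs of small estimates were not stable, and the cause was not tested. In the naïve sex comparison, leaving out single libraries gave -0.28 to 0.078 for Fos, -0.18 to 0.21 for Junb, -0.25 to 0.077 for Nr4a1 and -0.33 to 0.012 for Dusp1. RIN as a covariate, in a fit that also drops male 8 (no RIN, highest Junb), gave -0.40 for Junb, and the satellite glial score gave 0.012 for Fos and 0.084 for Nr4a1. After SNL, leaving out single libraries gave -0.54 to 0.051 for Jund, -0.44 to 0.33 for Egr1, -0.82 to 0.012 for Ier2 and -0.50 to 0.24 for Btg2. Egr1 was 0.022 with median-of-ratios scaling, and with quantile normalisation Egr1 was 0.099 and Btg2 0.0062.

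For the RIN slopes, leaving out single libraries gave -0.085 to 0.24 for Egr1, -0.027 to 0.057 for Jund, -0.063 to 0.10 for Nr4a1, -0.18 to 0.090 for Fos and -0.50 to 0.068 for Ier2. Quantile normalisation gave -0.033 for Fosb and 0.0043 for Nr4a1, and the satellite glial score gave 0.018 for Nr4a1. Without RIN below 6, Fos was 0.33 and Jund -0.037. In males alone Fos was 0.016, Ier2 0.069 and Nr4a1 0.135, and in females alone Fosb was -0.19, Jund -0.19, Egr1 -0.15 and Btg2 0.125.

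Replicate numbers mostly did not pair the libraries. Deviations of same-numbered libraries correlated at -0.16 to 0.28 in naïve neurons, where 1 of 11 pairs matched best, and at -0.21 to 0.26 after SNL. The matching naïve pair was male 2 with female 2, both with trunk Hox genes near 0, and after SNL pair 1 matched best. The paper reports processing in sex-matched batches, which the labels do not give, so a part of batches cannot be checked this way. With a replicate block, 5 naïve and 0 SNL genes were called, and the RIN slope called 0 genes, with Junb at 0.090, Jund at -0.093, Egr1 at -0.074, Ier2 at 0.15 and Nr4a1 at 0.10.

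Counts over all genes moved more. The naïve sex count of 7 became 1 at a mean FPKM of at least 5. The SNL count of 5 became 0 with no filter and 0 at that mean, and 5 to 13 without single libraries. The RIN count of 9 became 51 (pseudocount 0.1), 21 (no filter), 17 (median-of-ratios), 14 (quantile), 15 (no trend) and 16 (satellite glial score), 0 without RIN below 6, in either sex alone or without the 4 libraries with trunk Hox genes near 0, and 0 to 378 without single libraries. Without females 4 and 7, the rank correlation of Egr1 and Zfp36 was 0.57 (permutation adjusted p = 0.112, n = 20), and without male 4 and female 5 it was 0.58 (adjusted p = 0.0854); the other 3 pairs passed in both. These correlations and settings were chosen after seeing the data. With 3 libraries per sex after SNL, only large differences could have been called.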
